A study of Homo sapiens with 12 samples.

Results

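Cancer-testis antigens are proteins whose genes are normally read in male germ cells and placenta, are silent in most other tissues, and are switched on again in many tumours, melanoma among them. Many sit on the X chromosome in families of near-identical copies, and in somatic cells their promoters are kept silent mainly by DNA methylation. Peptides of these proteins are shown to T cells on HLA molecules, and several of the proteins were discovered in that way in patients with melanoma. The genes described here were taken by name from the deposited expression table, as every gene whose symbol begins with MAGEA, MAGEB, MAGEC, GAGE, XAGE, PAGE, SSX and a digit, CTAG or CSAG, together with PRAME, leaving out symbols that end in P or in P and a number. The rule found 50 of the 29696 genes listed, and 45 of the 50 lie on the X chromosome.

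The study compared A375 cells, a human melanoma cell line, infected with a lentivirus that expresses a short hairpin RNA against ALKBH5 (shALKBH5, labelled ALKBH5 knockdown) with A375 cells that carry the control construct (shCtrl, labelled wild type). ALKBH5 is a demethylase that removes the methyl group of N6-methyladenosine (m6A) from RNA. Each group had 3 input libraries of poly(A) RNA and 3 libraries of fragmented RNA after precipitation with an antibody against m6A. The labels and the methods do not name the hairpin of the sequenced cells and do not say for the sequencing libraries that the 3 of a group came from separate cultures, although the methods state in general that experiments were repeated independently, so p-values measure the spread between these libraries, which may be technical.

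Expression is given as FPKM, a fragment count scaled by transcript length and by the size of the library, without the counts themselves, so depth is unknown and the 3 libraries per group limit the precision. The targeted gene, ALKBH5, lay between 3.12 and 3.92 FPKM after knockdown and between 17.6 and 19.3 FPKM in control cells. Of the 8 melanocytic markers examined, SOX10 was at 179 to 192 FPKM in all 6 libraries and S100B at 31.5 to 34.2 FPKM in shCtrl and 79.0 to 85.1 FPKM in shALKBH5 libraries, MITF did not pass 1.57 FPKM, and the pigment genes PMEL, TYR, TYRP1 and DCT stayed under 0.690 FPKM. The sums over the 7 melanocytic markers listed were 214 to 225 FPKM in shCtrl and 262 to 267 FPKM in shALKBH5 libraries. Of the markers of other cells, the endothelial genes PECAM1 and CDH5 and the germ cell gene SYCP3 did not pass 0.0348 FPKM in any library, KRT14 was at 0.242 to 0.526 FPKM in shALKBH5 and 0.830 to 1.07 FPKM in shCtrl libraries, and CD68, a lysosomal protein abundant in macrophages, was at 14.8 to 17.2 FPKM in shCtrl and 38.1 to 41.9 FPKM in shALKBH5 libraries. The leukocyte markers PTPRC and CD3E and the keratinocyte markers KRT5 and KRT1 were not among the genes listed. Nor were the germ cell markers DDX4 and DAZL or the melanocytic marker MLANA. The part of the markers of other cells in the results below was not tested. In bulk RNA, fewer cells with a transcript and less of it per cell cannot be told apart.

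Promoter windows are printed for MAGEA3 and MAGEA12, genes of the MAGEA3 to MAGEA6 cluster whose windows share sequence, and for MAGEC2, which had the highest log2 fold change of the called genes with all libraries and shared no run over 10 bases with a MAGEA window. Sequences are the RefSeq windows of GRCh38.p14 from 250 bases before to 50 bases after the transcript start, read 5′ to 3′ on the strand of the gene. Of the 25 genes tested, 18 had such a window. In the 3 windows that follow, capitals mark CG dinucleotides, the bases at which DNA methylation can occur.
MAGEA3, chrX:152698544-152698843, plus strand, 19 CG dinucleotides: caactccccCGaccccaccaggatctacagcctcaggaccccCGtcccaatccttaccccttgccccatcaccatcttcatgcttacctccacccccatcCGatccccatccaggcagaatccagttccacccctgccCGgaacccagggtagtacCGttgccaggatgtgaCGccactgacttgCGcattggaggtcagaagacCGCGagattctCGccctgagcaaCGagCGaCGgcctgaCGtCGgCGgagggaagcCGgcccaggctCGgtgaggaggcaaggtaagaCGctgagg
MAGEA12, chrX:152733507-152733806, plus strand, 9 CG dinucleotides: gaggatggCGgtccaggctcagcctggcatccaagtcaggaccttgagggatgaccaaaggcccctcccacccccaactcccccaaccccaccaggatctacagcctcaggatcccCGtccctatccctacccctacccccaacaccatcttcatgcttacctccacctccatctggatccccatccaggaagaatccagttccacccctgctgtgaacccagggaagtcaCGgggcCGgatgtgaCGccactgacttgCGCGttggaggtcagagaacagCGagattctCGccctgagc
MAGEC2, chrX:142205241-142205540, minus strand, 10 CG dinucleotides: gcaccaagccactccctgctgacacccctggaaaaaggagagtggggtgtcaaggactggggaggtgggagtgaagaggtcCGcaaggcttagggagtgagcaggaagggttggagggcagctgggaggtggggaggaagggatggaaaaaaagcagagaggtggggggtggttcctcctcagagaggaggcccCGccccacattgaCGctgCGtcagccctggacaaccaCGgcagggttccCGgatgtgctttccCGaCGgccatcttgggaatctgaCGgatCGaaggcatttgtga

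The window of MAGEA6 was identical to that of MAGEA3 over all 300 bases. The windows of MAGEA2 and MAGEA2B shared a run of 258 bases, and the windows of XAGE1A and XAGE1B, the pair that fell, a run of 287 bases. A run of 27 bases was common to the windows of MAGEA2, MAGEA2B, MAGEA3, MAGEA6 and MAGEA12 and was found in no other gene among the 35116 windows. The transcript starts in the windows of MAGEA4-AS1, XAGE1B and MAGEA11 lie 2885, 3735 and 23832 bases from the deposited gene start. Those in the other 15 windows lie within 100 bases of it. Over these 15 the number of CG dinucleotides ran from 9 in MAGEA12 to 20 in CSAG3, and the median was 13 over all 18, against 14 over all windows. The letters CCGGAAGT, in which factors of the ETS family bind, were searched on both strands and stood in none of the 18 windows, against 4.14% of all windows. No match says only that these letters are not in this stretch, and other sequences that ETS factors bind were not searched.

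The next pair of windows is shown because its genes moved in opposite directions, PAGE1 up and XAGE1A down, although they share 23 bases just ahead of the start, which are in capitals.
PAGE1, chrX:49695935-49696234, minus strand: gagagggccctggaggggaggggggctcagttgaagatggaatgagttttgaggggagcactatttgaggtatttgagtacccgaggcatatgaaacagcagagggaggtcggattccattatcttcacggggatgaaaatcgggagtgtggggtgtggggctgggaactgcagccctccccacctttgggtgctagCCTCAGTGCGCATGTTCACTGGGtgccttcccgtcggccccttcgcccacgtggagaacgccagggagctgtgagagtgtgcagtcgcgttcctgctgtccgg
XAGE1A, chrX:52495558-52495857, plus strand: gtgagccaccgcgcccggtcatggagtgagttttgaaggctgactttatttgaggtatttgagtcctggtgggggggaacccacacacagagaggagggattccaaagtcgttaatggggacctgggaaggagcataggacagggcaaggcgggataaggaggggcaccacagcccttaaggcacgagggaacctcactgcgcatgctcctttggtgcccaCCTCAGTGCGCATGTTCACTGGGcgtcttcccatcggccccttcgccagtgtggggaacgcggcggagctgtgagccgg

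This run was held by 18 of all windows (0.0513%), which belong to 14 genes, all of the GAGE, PAGE and XAGE families.

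A375 cells transcribed a limited set of these genes. Of the 50 genes, 25 averaged 0.5 FPKM or more across the 6 input libraries and were tested, and 25 lay below. All members together made up 0.513 to 0.527% of the summed FPKM in the shCtrl libraries and 0.622 to 0.634% in the shALKBH5 libraries. The highest shCtrl means were those of MAGEA4, PAGE5, XAGE1A and MAGEA3, and the highest shALKBH5 means those of MAGEA4, PAGE5, MAGEA3 and PAGE2. Across the 6 libraries, 18 of the 25 tested genes averaged 10 FPKM or more. The plot of FPKM by library shows a gap between MAGEA10, at 12.5 to 17.3 FPKM, and MAGEA11, at 6.21 to 7.40 FPKM.

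**Figure D1:**
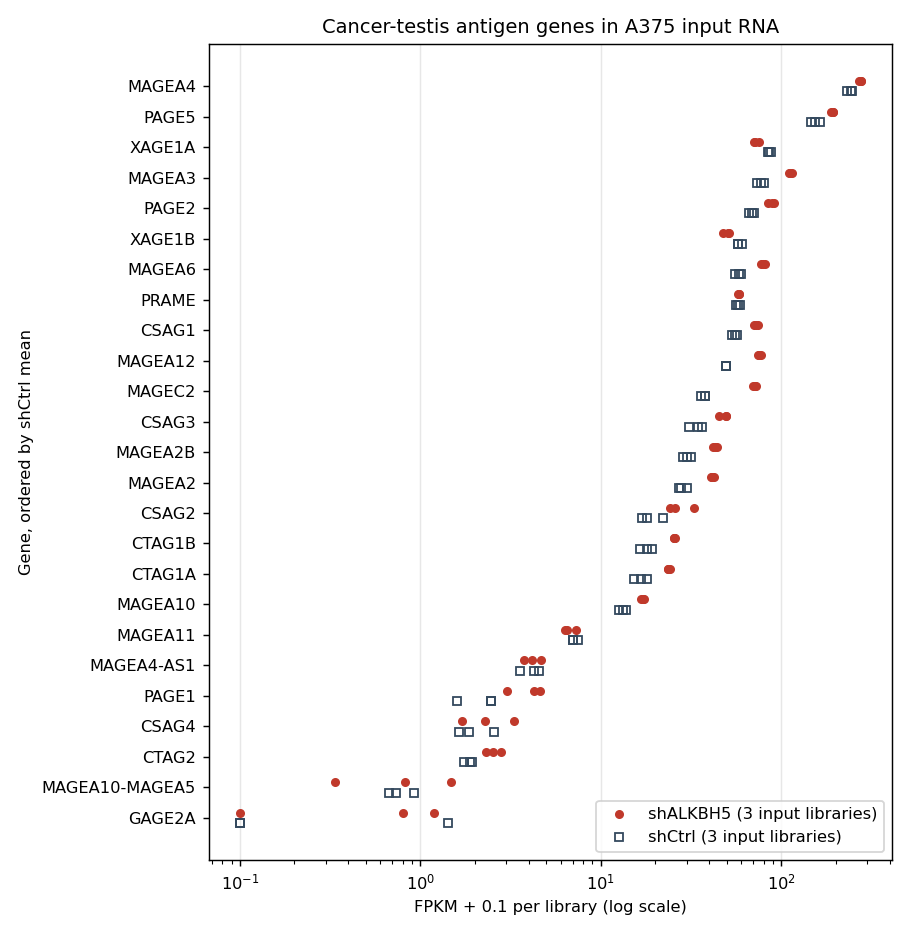
FPKM plus 0.1 on a log scale in each of the 3 shALKBH5 (filled circles) and 3 shCtrl (open squares) input libraries for the 25 tested cancer-testis antigen genes, ordered by their shCtrl mean. The shALKBH5 points lie right of all shCtrl points in 17 genes and left of them in 2, XAGE1A and XAGE1B.

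Between the groups the families did not move alike. With limma on log2(FPKM + 0.1) and Benjamini-Hochberg adjustment over all 12985 genes tested, 17 of the 25 genes were higher and 2 lower in shALKBH5 cells at an adjusted p under 0.05, and 6 did not pass. Over all genes tested the shares were 34.7% higher and 26.2% lower, 61.0% in either direction. The member counts take near-identical copies as separate genes, although their reads cannot be assigned with certainty. Such pairs among the called genes were MAGEA3 and MAGEA6, MAGEA2 and MAGEA2B, CSAG2 and CSAG3, CTAG1A and CTAG1B, and XAGE1A and XAGE1B. In 19 of the 25 genes no shALKBH5 value fell within the range of shCtrl or the reverse, against 67.0% of all genes tested, and an exact permutation test of 3 libraries against 3 cannot give a two-sided p below 0.1. The median log2 fold change was 0.46 over the 25 genes and 0.09 over all genes. Among genes that averaged 10 FPKM or more, 15 of 18 members were higher and 2 lower, and 43.6% of the 3602 other genes were higher and 29.9% lower. The 434 other tested genes on the X chromosome had a median log2 fold change of 0.05, with 139 higher and 122 lower.

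**Figure D2:**
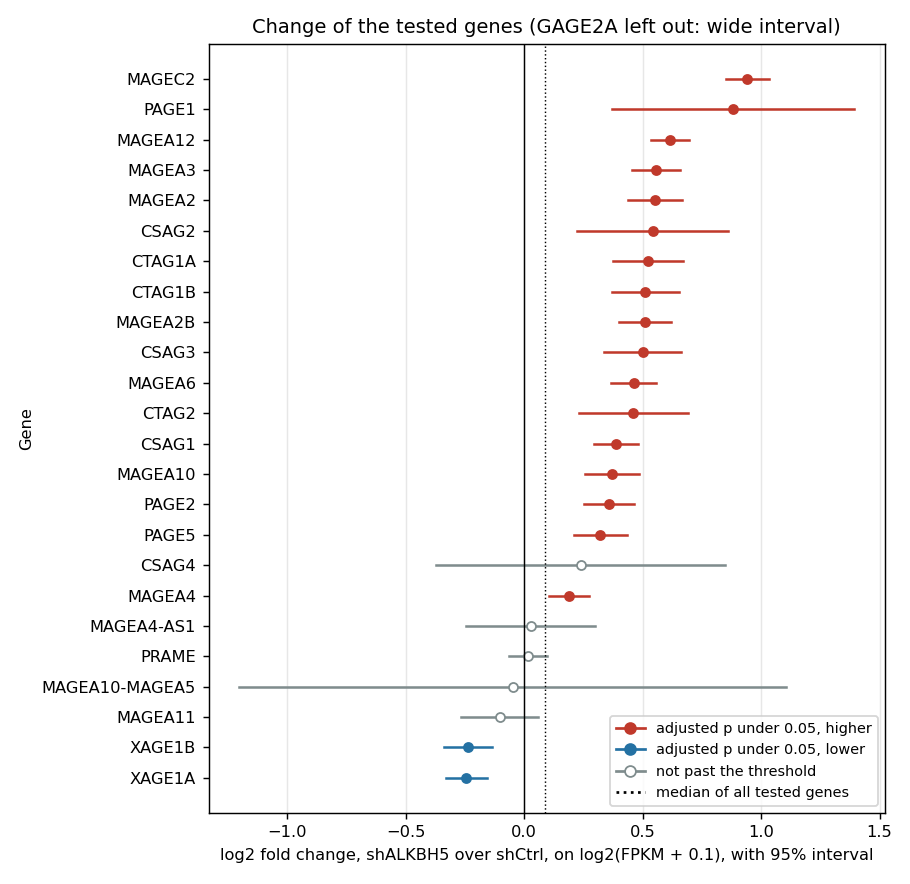
Log2 fold change of shALKBH5 over shCtrl on log2(FPKM + 0.1), with its 95% interval, for 24 of the 25 tested genes. MAGEC2 is highest at 0.94, XAGE1A is lowest at -0.24, and the dotted line at 0.09 is the median of all 12985 genes tested.

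MAGE proteins share a domain through which they bind RING-type ubiquitin ligases. MAGEC2, which binds the ligase TRIM28, had the highest log2 fold change of the called genes with all 6 libraries in the fit. PAGE1 stood above it in 3 of the 6 fits that left out a library, at 1.07 against 0.94 without shALKBH5 replicate 1, 0.99 against 0.92 without shCtrl replicate 1 and 0.99 against 0.95 without shCtrl replicate 3. MAGEC2 was at 71.8, 72.8 and 69.7 FPKM in the shALKBH5 libraries and at 35.9, 37.9 and 37.7 FPKM in the shCtrl libraries, a ratio of means of 1.92. The groups were far apart and each was tight. Its log2 fold change was 0.94 ± 0.0393 (SE, 95% interval 0.85 to 1.03, adjusted p = 1.87e-06). MAGEC2 (ENSG00000046774) lies on the minus strand of chromosome X from 142202342 to 142205290, in the coordinates of the deposited table. Its relatives MAGEC1 and MAGEC3 reached no more than 0.0824 and 0.0137 FPKM in any library.

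MAGEA3 and MAGEA6, which encode nearly the same protein and also bind TRIM28, rose together. MAGEA3 (ENSG00000221867) was at 112, 115 and 111 FPKM with shALKBH5 and at 76.9, 73.2 and 80.1 FPKM with shCtrl. MAGEA6 (ENSG00000197172) was at 79.0, 81.3 and 77.7 FPKM against 57.9, 55.4 and 59.5 FPKM. Neither gene had overlapping groups. Their log2 fold changes were 0.56 ± 0.0427 (SE, adjusted p = 3.14e-05) and 0.46 ± 0.0406 (SE, adjusted p = 5.82e-05). Reads from copies this close cannot be assigned with certainty, so the sum of both is given as well. It averaged 192 ± 4.08 FPKM after knockdown and 134 ± 5.51 FPKM in control cells (SD, n = 3 each), 1.43 times as high.

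MAGEA12 (ENSG00000213401) was at 74.5, 74.8 and 77.7 FPKM in shALKBH5 libraries and at 49.5, 49.3 and 49.3 FPKM in shCtrl libraries. This was the largest called change among the MAGEA genes, with a log2 fold change of 0.61 ± 0.0343 (SE, adjusted p = 6.97e-06). MAGEA2 was at 40.6, 42.6 and 41.1 FPKM against 27.7, 27.2 and 30.0 FPKM, and its copy MAGEA2B at 42.6, 44.0 and 41.7 FPKM against 30.0, 28.6 and 31.5 FPKM. The copies had nearly the same level and the same change, with log2 fold changes of 0.55 and 0.51 (adjusted p = 6.06e-05 and 7.73e-05). MAGEA10 was at 17.1, 17.3 and 16.7 FPKM against 12.5, 13.2 and 13.8 FPKM, a log2 fold change of 0.37 ± 0.0490 (SE, adjusted p = 0.000452).

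MAGEA4 (ENSG00000147381), a target of engineered T cell receptors, was the most abundant gene of the set and one of the least changed. It was at 270.1, 278 and 278 FPKM in shALKBH5 libraries and at 245, 233 and 247 FPKM in shCtrl libraries. The groups did not overlap, but the ratio of means was only 1.14. Its log2 fold change of 0.19 ± 0.0363 (SE, adjusted p = 0.00309) fell to 0.11 with an adjusted p of 0.102 when each library was rescaled by its median ratio, so the call depends on the scaling. MAGEA4-AS1, the antisense RNA that overlaps it by 1460 bases, was at 4.57, 4.07 and 3.66 FPKM with shALKBH5 and at 3.46, 4.20 and 4.43 FPKM with shCtrl, and its groups overlapped. Its log2 fold change was 0.03 with an interval from -0.25 to 0.30. The strand setting of the counting is not stated, and the antisense level is therefore uncertain.

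MAGEA11, a coactivator of the androgen receptor, was at 6.21, 6.42 and 7.19 FPKM in shALKBH5 libraries and at 6.92, 6.96 and 7.40 FPKM in shCtrl libraries. These groups overlapped, and the log2 fold change of -0.10 had an interval from -0.27 to 0.06 (adjusted p = 0.233). The readthrough gene MAGEA10-MAGEA5, which overlaps MAGEA10 on the same strand, was at 0.235, 1.38 and 0.725 FPKM against 0.571, 0.823 and 0.633 FPKM. Its interval from -1.20 to 1.10 leaves its change unmeasured. MAGEA1, the founding member of the family, did not pass 0.0685 FPKM, and MAGEA5 did not pass 0.270 FPKM.

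The genes from MAGEA3 to MAGEA6 lie within 71 kb of chromosome X, 9 of them in all, and every gene listed between these ends is a MAGEA or CSAG gene. Of the 9, 8 were higher in shALKBH5 cells, against 34.7% of all genes tested, with log2 fold changes from 0.39 for CSAG1 to 0.61 for MAGEA12. The copies MAGEA3 and MAGEA6, MAGEA2 and MAGEA2B, and CSAG2 and CSAG3 are counted here as separate genes, although their reads cannot be assigned with certainty. Of the 56 other genes tested between MAGEC2 and CTAG2, the outermost tested members on this arm, 21 were higher (37.5%) and 13 lower (23.2%). CSAG genes were found in chondrosarcoma, and the function of their products is little known. Each of CSAG1, CSAG2 and CSAG3 starts back to back with a MAGEA gene. MAGEA12 and CSAG1 are 21 bases apart, MAGEA2 and CSAG3 36 bases, and MAGEA2B and CSAG2 36 bases.

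**Figure D3:**
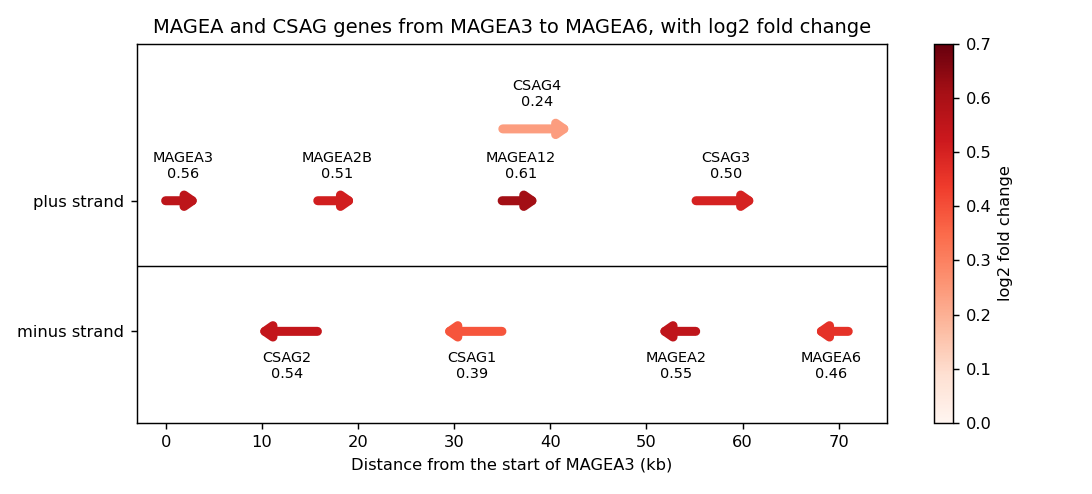
The 9 MAGEA and CSAG genes from MAGEA3 to MAGEA6, drawn as arrows on their strand at their distance in kb from the start of MAGEA3, coloured and labelled by log2 fold change. CSAG4 is drawn above MAGEA12, which it overlaps on the same strand, and is the only gene of the 9 that did not pass the test.

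CSAG1 was at 70.4, 74.1 and 72.2 FPKM in shALKBH5 libraries and at 56.9, 55.1 and 53.5 FPKM in shCtrl libraries, a log2 fold change of 0.39 ± 0.0396 (SE, adjusted p = 0.000121). The 95% interval of CSAG1, 0.30 to 0.48, lay below that of its neighbour MAGEA12, 0.53 to 0.69, and no test of this difference was run. CSAG2 was at 24.2, 32.9 and 25.7 FPKM against 21.9, 16.8 and 17.9 FPKM, and CSAG3 at 49.4, 45.2 and 49.1 FPKM against 30.8, 34.6 and 36.4 FPKM. The groups did not overlap in either gene, and CSAG2 had the larger standard error of this pair. Their log2 fold changes were 0.54 (adjusted p = 0.0104) and 0.50 (adjusted p = 0.000581), and the sum of the copies was 1.43 times as high in shALKBH5 cells. CSAG4, a noncoding gene that overlaps MAGEA12 by 3843 bases, was at 2.17, 3.21 and 1.61 FPKM against 2.46, 1.54 and 1.76 FPKM and did not pass (adjusted p = 0.456).

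CTAG1A and CTAG1B encode the same protein, NY-ESO-1, and CTAG2 encodes its relative LAGE-1. All 3 genes rose. CTAG1A was at 24.1, 23.6 and 23.6 FPKM in shALKBH5 libraries and at 17.9, 15.1 and 16.7 FPKM in shCtrl libraries. CTAG1B was at 25.8, 25.3 and 25.3 FPKM against 19.3, 16.5 and 17.9 FPKM. The sum of the copies was 49.2 ± 0.541 against 34.4 ± 2.75 FPKM (SD, n = 3 each). CTAG2 was far lower, at 2.23, 2.72 and 2.44 FPKM against 1.79, 1.65 and 1.83 FPKM. The log2 fold changes of CTAG1A, CTAG1B and CTAG2 were 0.52, 0.51 and 0.46 (adjusted p = 0.000291, 0.000247 and 0.00496). The CTAGE genes CTAGE1, CTAGE6, CTAGE8 and CTAGE15, which the naming rule also takes but which belong to an unrelated family, did not pass 0.0194, 0.00379, 0.0157 and 0.00382 FPKM.

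PAGE, XAGE and GAGE genes encode small, acidic and largely disordered proteins of 1 superfamily, and within it the directions differed. PAGE5 was at 189.7, 195 and 194 FPKM with shALKBH5 and at 154, 146 and 164 FPKM with shCtrl, a log2 fold change of 0.32 ± 0.0471 (SE, adjusted p = 0.00077). PAGE2 was at 84.3, 88.6 and 91.5 FPKM against 68.8, 71.0 and 66.4 FPKM, a log2 fold change of 0.36 ± 0.0449 (SE, adjusted p = 0.000344). PAGE1 was at 2.93, 4.53 and 4.19 FPKM against 2.36, 1.49 and 2.36 FPKM, a log2 fold change of 0.88 ± 0.218 (SE, adjusted p = 0.00991). All 3 rose without overlap of the groups, and the interval of PAGE1, 0.37 to 1.39, was wide. PAGE2B, a close copy of PAGE2, did not pass 0.722 FPKM and was listed at 0 in 3 libraries.

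XAGE1A and XAGE1B were the only tested genes of the set called lower. XAGE1A (ENSG00000204379) was at 74.8, 71.8 and 70.6 FPKM in shALKBH5 libraries and at 87.2, 84.9 and 85.1 FPKM in shCtrl libraries. XAGE1B (ENSG00000204382) was at 51.0, 50.6 and 47.5 FPKM against 57.8, 57.3 and 60.7 FPKM. In both, every shALKBH5 value lay below every shCtrl value. The log2 fold change was -0.24 in each (adjusted p = 0.000888 and 0.00241), and the sum of the copies was 122 ± 3.85 against 144 ± 1.87 FPKM (SD, n = 3 each), a ratio of 0.846. XAGE2 did not pass 0.257 FPKM.

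GAGE genes were close to silent. GAGE2A was listed at 0, 1.09 and 0.705 FPKM in shALKBH5 libraries and at 0, 0 and 1.33 FPKM in shCtrl libraries, and its interval, -2.08 to 3.91, gives no direction (adjusted p = 0.563). The highest values of the other GAGE genes were 0.301 FPKM for GAGE12C, 0.193 for GAGE12D, 0.266 for GAGE12E, 0.000255 for GAGE12F, 0.124 for GAGE12G and 0.0101 for GAGE1.

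PRAME, the substrate receptor of a CUL2 ubiquitin ligase and a repressor of retinoic acid receptor signalling, lies on chromosome 22 from 22547701 to 22559361. It was at 58.5, 57.9 and 58.2 FPKM in shALKBH5 libraries and at 56.1, 58.7 and 57.7 FPKM in shCtrl libraries. The values overlapped, and the log2 fold change of 0.02 had a narrow 95% interval from -0.06 to 0.10 (adjusted p = 0.691). The upper bound lay below the log2 fold change of each of the 8 genes called from MAGEA3 to MAGEA6.

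The SSX genes, whose fusion with SS18 drives synovial sarcoma, and the MAGEB genes stayed below the filter. SSX2 was at 0.314 to 0.534 FPKM with shALKBH5 and at 0.369 to 0.641 FPKM with shCtrl, and SSX2B did not pass 0.530 FPKM. SSX1, SSX4 and SSX4B did not pass 0.140, 0.0895 and 0.117 FPKM. After knockdown, MAGEB2 was listed at 0 in all 3 libraries, and it was at 0.0365, 0.0441 and 0.0900 FPKM with shCtrl. MAGEB1, MAGEB3 and MAGEB17 did not pass 0.0219, 0.0125 and 0.0314 FPKM.

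A list of regulators tied to cancer-testis genes was examined beside them. It mixes factors of DNA methylation and chromatin silencing with the TET enzymes, which act against DNA methylation, with CTCFL, and with transcription factors such as ETS1, ETS2, ELK1 and SP1, so its counts do not stand for silencing factors alone. Of 48 regulators listed, 44 were tested, and 10 were higher (22.7%) and 18 lower (40.9%) in shALKBH5 cells, against 34.7 and 26.2% of all genes tested, with a median log2 fold change of -0.13. UHRF1, which brings DNMT1 to newly copied DNA, was at 6.30, 6.06 and 6.35 FPKM in shALKBH5 libraries and at 26.8, 24.4 and 25.7 FPKM in shCtrl libraries. DNMT1, the maintenance DNA methyltransferase, was at 18.6, 18.8 and 18.8 FPKM against 32.7, 33.6 and 32.7 FPKM. Both fell, by 2.02 and 0.81 on the log2 scale (adjusted p = 3.18e-07 and 2.60e-06). The de novo methyltransferase DNMT3B averaged 0.281 ± 0.0788 FPKM after knockdown against 1.20 ± 0.0670 FPKM (SD, n = 3 each) and fell by 1.79 on the log2 scale (adjusted p = 0.000149), and it passed the filter only through its shCtrl level. The other de novo enzyme, DNMT3A, had a log2 fold change of -0.07 and did not pass.

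EZH2, the histone H3 methyltransferase of Polycomb, averaged 2.48 ± 0.241 FPKM after knockdown against 6.74 ± 0.752 FPKM (SD, n = 3 each) and fell by 1.41 on the log2 scale (adjusted p = 2.84e-05). The ETS-family factors ELK1 and ETS2 had log2 fold changes of -1.70 and -1.31 (adjusted p = 8.94e-07 and 3.73e-06). The other regulators called lower, also named after their values were seen, included RNF2 with -0.98, EHMT2 with -0.90, HELLS with -0.69 and HDAC3 with -0.67. The rest were YY1 with -0.46, ETS1 with -0.43, DAXX with -0.40, TRIM28 with -0.37, CTCF and KDM1A with -0.34, HDAC2 with -0.31 and SP1 with -0.23. The 10 regulators called higher, named here after their values were seen, were TET3 with 0.96, MAX with 0.56, KDM5B with 0.51, L3MBTL2 with 0.49, E2F6 with 0.47, MPHOSPH8 with 0.42, MBD1 with 0.38, HDAC1 with 0.21, EZH1 with 0.20 and MORC2 with 0.19 on the log2 scale. TET3 oxidises methylated cytosine, and MAX, L3MBTL2 and E2F6 belong to a Polycomb complex that represses germline genes. RNF2, of the same complex, was among the regulators called lower (adjusted p = 0.000124). PCGF6, MGA, RING1 and CBX3, also of this complex, did not pass. CTCFL, a germline paralogue of CTCF that has been tied to cancer-testis gene activation, did not pass 0.0223 FPKM with shCtrl and stood at 0 in every shALKBH5 library. The part of these regulators in the changes of the cancer-testis genes was not tested.

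**Figure D4:**
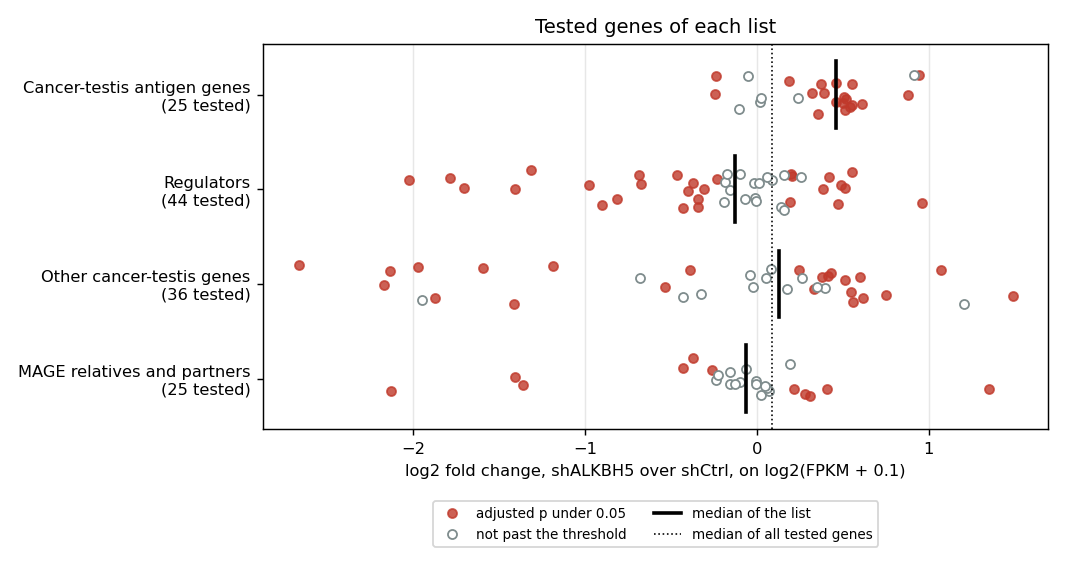
Log2 fold change of every tested gene of 4 lists, with filled points for an adjusted p under 0.05 and a bar at the median of each list. The bar lies at 0.46 for the cancer-testis antigen genes and at -0.13 for the regulators, and the dotted line at 0.09 is the median of all genes tested.

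Other genes catalogued as cancer-testis genes were called about as often as genes at large. Of 85 listed, 36 were tested, and 13 were higher (36.1%) and 10 lower (27.8%) in shALKBH5 cells, against 34.7 and 26.2% of all genes tested, with a median log2 fold change of 0.13. The 5 with the largest called changes were all lower in shALKBH5 cells, and ATAD2, NUF2 and SPANXD averaged under 0.5 FPKM there and passed the filter only through their shCtrl level. They were ATAD2 with -2.67, CEP55 with -2.17, SPANXD with -2.13, NUF2 with -1.97 and PBK with -1.87 (adjusted p from 9.99e-06 for PBK to 0.010 for SPANXD). Of the other called genes, TTK averaged 0.241 FPKM in shALKBH5 cells, and ROPN1B and TMEM108 averaged 0.353 and 0.495 FPKM in shCtrl cells. TTK, ROPN1B and TMEM108 also passed the filter only through their level in the other group. ATAD2, CEP55, NUF2 and PBK are autosomal genes with roles in dividing cells of any kind, and SPANXD is an X-linked sperm gene. Among the X-linked genes of the list that rose, CT83 and SAGE1, chosen after their values were seen, had log2 fold changes of 1.07 and 0.60 (adjusted p = 0.000376 and 0.00328). The CT45A genes are near-identical copies, and reads can be split among them. Of the 9 tested, 3 were called higher (33.3%) and 1 lower (11.1%), and 5 were not called. Without shALKBH5 replicate 1, 8 genes of the list were called higher in place of 13.

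A list of the ubiquitously expressed MAGE relatives and of proteins known to work with MAGE or PRAME proteins held 31 listed genes, of which 25 were tested. Of these, 5 were higher (20%) and 6 lower (24%), neither share above the 34.7 and 26.2% of all genes tested. MAGEH1, a MAGE gene read in many tissues, averaged 3.65 ± 0.143 FPKM after knockdown against 1.38 ± 0.219 FPKM (SD, n = 3 each), a rise of 1.35 on the log2 scale (adjusted p = 5.87e-05). The retinoic acid receptor gene RARB and the F-box gene SKP2 fell, with log2 fold changes of -2.13 and -1.36 (adjusted p = 4.10e-05 and 1.17e-05), as did EZH2, given above. CUL2, the scaffold of the PRAME ligase, had a log2 fold change of -0.43 (adjusted p = 0.0310). TRIM28, the ligase that MAGEC2, MAGEA3 and MAGEA6 bind, averaged 109 ± 1.39 FPKM after knockdown against 141 ± 9.70 FPKM (SD, n = 3 each). Its log2 fold change was -0.37 (adjusted p = 0.000611).

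The m6A data consist of 1 list of peaks per group, with the enrichment of the precipitated over the input RNA and with no values per library, so none of what follows has a replicate check. Cancer-testis antigen genes held 38 peaks in each list, in 20 genes each. Of these genes, 17 held a peak in both lists, 3 only with shALKBH5 and 3 only with shCtrl. Among the 25 tested members, 16 held a peak in both lists (64%) and 7 in neither (28%), and among all 12985 genes tested, 82.6% did so in both and 11.1% in neither. By the annotation of the lists, the shALKBH5 peaks comprised 14 in 5′UTRs, 5 in other coding exons, 14 in 3′UTRs and 5 in noncoding RNAs, and the shCtrl peaks 15, 7, 13 and 3. Overlap by at least 1 base on the same strand was found for 28 peaks of the shALKBH5 list (73.7%) and 29 of the shCtrl list (76.3%), against 78.1 and 81.3% of all peaks. The order turned round when an overlap of at least 50% of both peaks was asked for, with 60.5% of member peaks shared in each list against 51.6 and 53.7% of all peaks. The median fold enrichment was 3.395 in the shALKBH5 and 3.15 in the shCtrl list, below the medians of 5.31 and 5.25 over all peaks.

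High expression was not always accompanied by a peak. Of the 18 members that averaged 10 FPKM or more, 14 held a peak in both lists (77.8%), against 84.0% of the other genes at this level. PAGE5 and CTAG1A, at 193 and 23.8 FPKM in shALKBH5 cells, held none in either list. MAGEC2 held a single peak, in its 3′UTR with shALKBH5, of 2.04-fold enrichment. CTAG1B held 2 peaks with shCtrl, of 6.70- and 21.7-fold, and none with shALKBH5. Below the expression filter, MAGEA1, MAGEA5, MAGEB17, PAGE2B and SSX2B held peaks, where the input is close to 0. The false discovery rate given with the peaks was above 0.05 in 2 member peaks of each list, those of MAGEA1 and the 3′UTR peak of MAGEA2B with shALKBH5 and those of MAGEA1 and MAGEB17 with shCtrl.

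There were 26 peaks that met exactly 1 peak of the other list. In 11 of them (42.3%) the enrichment was higher with shALKBH5 and in 15 lower, against 45.8% higher over all 23026 such peaks, and the median log2 ratio was -0.02, against -0.04 over all. PRAME held 4 peaks in each list. At its 3′ end (22547701 to 22548420 with shALKBH5 and to 22548390 with shCtrl) the enrichment was 11.3- and 12.2-fold, and at the adjoining 3′UTR peak 2.83- and 2.96-fold. The CSAG3 peak that spans the gene was enriched 15.8-fold with shALKBH5 and 12.8-fold with shCtrl, and that of CSAG1 2.96- and 3.01-fold. In MAGEA3 and MAGEA6 the peaks that begin in the 5′UTR stood at 2.89- and 5.36-fold with shALKBH5 and at 3.29- and 5.39-fold with shCtrl.

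**Figure D5:**
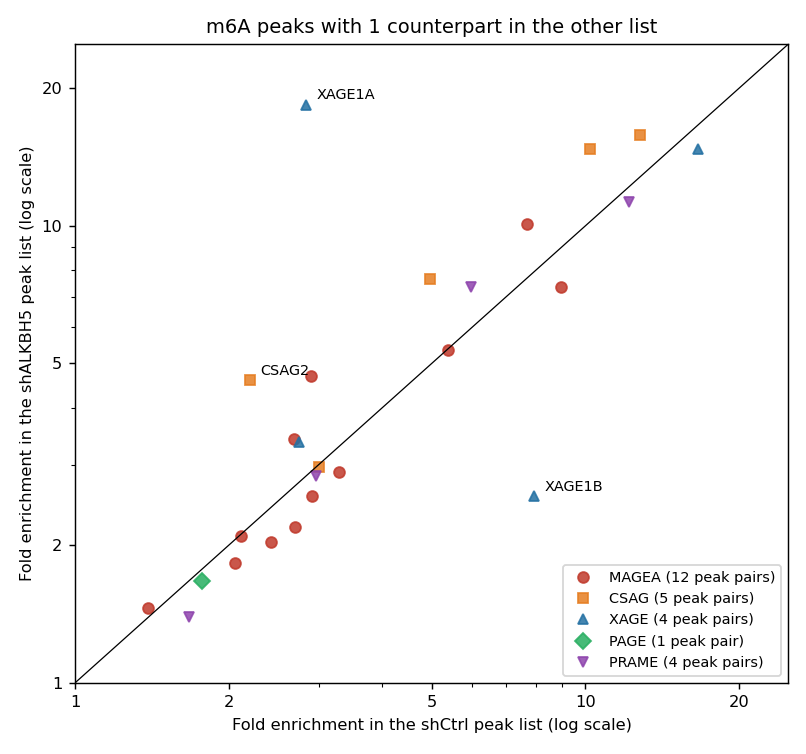
Fold enrichment of 26 m6A peaks in the shCtrl list (x axis) and in the shALKBH5 list (y axis), both on a log scale, coloured by gene family, with the line of equal values. The named points, 1 each of XAGE1A, XAGE1B and CSAG2, differ by more than 1 on the log2 scale.

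The widest differences lay in XAGE1A and XAGE1B and ran in opposite directions. A 5′UTR peak of XAGE1A (52496101 to 52497987) was enriched 18.4-fold with shALKBH5, and its counterpart 2.83-fold with shCtrl. The 3′UTR peak of XAGE1B was enriched 2.56-fold with shALKBH5 and 7.93-fold with shCtrl. These genes are near-identical copies on opposite strands, and how reads were divided between them was not tested. MAGEA4 carried a 5′UTR peak at 151915584 to 151918296 only with shCtrl (6.68-fold) and another at 151914855 to 151914945 only with shALKBH5 (2.79-fold), as was a 3′UTR peak at 151924991 to 151925170 (1.73-fold), while the peak in its coding exon stood at 2.09-fold with shALKBH5 and 2.11-fold with shCtrl.

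A further deposited table lists peaks that its makers compared between the groups, of which only the positions were used here. It held 13 entries in 10 of the genes, namely PRAME with 3, MAGEA4 with 2, and CSAG1, CSAG4, MAGEA12, MAGEA2B, MAGEA3, MAGEC2, PAGE2B and XAGE1B with 1 each. Of the 38 shALKBH5 peaks of the set, 12 (31.6%) overlapped an entry, as did 10 (26.3%) of the 38 shCtrl peaks, against 15.8 and 16.1% of all peaks. No direction is given for these entries.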

How the data were processed

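RNA-Seq input and MeRIP-Seq libraries of A375 cells were grouped by their titles. The FPKM columns are named as input, while the methods describe RNA-Seq on another sequencer than the one in the labels, so whether these are the inputs of the precipitations is not certain. The authors deposited expression as FPKM per input library, with a fold change, p-value and q-value of their own comparison, made by the paper's methods with edgeR, which were not used. The authors deposited peaks as 1 list per group, with a fold enrichment (ratio of IP over input), log10 p and FDR values treated as a score, and the length of each peak span in bases. The authors' deposited table of differential peaks also holds a log2 fold change, p and FDR, which were not used. Aligner, counter, strand setting, peak caller and pooling are not given in the sources used here. The labels name a mouse genome build, which does not go with the human gene identifiers, and no other build is given. Of the 18 RefSeq windows used, 7 have their transcript start exactly at the deposited gene start, and 15 within 100 bases of it.

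Read counts were not used, so depth is unknown. The test was two-sided, by lmFit and eBayes (with a trend) of limma 3.58.1, run under R 4.3.3, on log2(FPKM + 0.1) of every gene that averaged 0.5 FPKM or more, and p-values were adjusted by Benjamini-Hochberg. These fold changes understate the change of low genes. The test was run beforehand on simulated data with known changes. Tables were made with pandas 2.3.3 and numpy 2.4.6 under Python 3.11.15, exact tests with scipy 1.17.1 and plots with matplotlib 3.10.9.

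The genes, lists and tests were chosen with earlier results of these data known. Named are all 50 members, ALKBH5, DNMT1, UHRF1, CTCFL and, of each other list, the 5 called genes with the largest absolute log2 fold change. CT83, SAGE1, TTK, ROPN1B, TMEM108, DNMT3A, PCGF6, MGA, RING1, CBX3 and the other regulators called higher or lower fall outside this rule. They were named after their values were seen. Symbols of the lists without a match in the table were not analysed here. The settings varied were the pseudocount (1 or 0.01), the filter (none, or 1 FPKM), median ratio rescaling, the replicate block, eBayes without a trend, each library left out, a stricter peak set (enrichment 2-fold or more, FDR 0.01 or less), and a reciprocal overlap of 50%.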

Additional observations from a re-analysis of the deposited data

How the results depend on the processing

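Over the alternatives, 16 to 17 cancer-testis antigen genes were called higher and 2 to 3 lower. The third lower gene, without a filter, was MAGEB2 (log2 fold change -0.63). With each library left out the counts were 17 to 17 higher and 2 to 2 lower. Of the 25 tested genes, 20 kept their direction and their side of the threshold in each of the alternatives that tested them. Rescaling by median ratios took MAGEA4 to 0.11 (adjusted p = 0.102), PRAME to -0.0583 and MAGEA4-AS1 to -0.0472, and changed the split of all called genes from 4509 higher and 3408 lower to 3788 and 3898. With each library left out, PRAME ranged from -0.00082 (without shCtrl replicate 1) to 0.0322, MAGEA4-AS1 from -0.0762 (without shCtrl replicate 1) to 0.104, CSAG4 from -0.0122 (without shALKBH5 replicate 2) to 0.467 and MAGEA10-MAGEA5 from -0.548 to 0.525 (without shALKBH5 replicate 1). MAGEA4-AS1 was also at -0.0534 without shALKBH5 replicate 1, and MAGEA10-MAGEA5 at 0.0825 without shCtrl replicate 2 and at 0.0393 with a pseudocount of 1. These genes other than MAGEA4 were not called under any setting.

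With each library left out, the regulators had 7 to 10 higher and 16 to 19 lower calls, the other cancer-testis genes 8 to 13 higher and 8 to 12 lower, and the relatives and partners 5 to 6 higher and 5 to 7 lower. Without a filter, 10 of 85 other cancer-testis genes were called higher and 14 lower. With the filter at 1 FPKM, 9 of 26 were called higher and 7 lower. Same-numbered libraries correlated at 0.018, -0.046 and 0.059 in their deviations from the group means, so the numbers were not taken as pairs. The replicate block gave 17 cancer-testis antigen genes higher and 2 lower, 7 and 16 regulators, 11 and 11 other cancer-testis genes and 5 and 5 relatives and partners, and changed no call of a cancer-testis antigen gene. Stricter peaks left 30 and 31 member peaks, of which 22 and 23 overlapped, and a reciprocal overlap of 50% left 23 and 23 (60.5% each, against 51.6 and 53.7% of all peaks, above rather than below them). The thresholds planned for the table of differential peaks were not run, because its values were not used. Peaks have no replicates, and the unknown depth limits what can be said of genes near 0 FPKM.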
